A study of Mus musculus with 4 samples.

Results

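The genes described here carry the signal of leukemia inhibitory factor (LIF) in mouse embryonic stem cells. They are the ligand Lif, the receptor subunits Lifr and Il6st, the kinases Jak1 and Jak2, the transcription factor Stat3, and Socs3, Pim1 and Pim3, which are induced by STAT3. The 9 genes were chosen by name, and all 9 were found among the 23309 genes of the authors' deposited table. The libraries came from total RNA of 129/Ola embryonic stem cells of 2 genotypes, wild type and Chd2 mut/mut, which the sample titles call Chd2KO. Both genotypes were at passage 10 to 20 and were grown on gelatin, with no feeder cells named in the labels, in medium that held 10% serum and 1000 U/ml of recombinant LIF. LIF was thus supplied to both genotypes, and no library without LIF was analysed here. The 2 libraries of a genotype are numbered by lot (1 and 2). The labels do not say whether the lots were separate cultures, how the mutation was made, or how many clones it stands for.

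LIF binds LIFR, which pairs with IL6ST (gp130), the subunit shared by the receptors of the interleukin-6 family. JAK kinases held by these receptors then phosphorylate STAT3, which enters the nucleus and switches on its targets. In mouse embryonic stem cells grown in serum, this signal is known to hold back differentiation. SOCS3, itself a STAT3 target, binds the activated receptor and JAKs and limits the signal, while PIM1 and PIM3 are serine/threonine kinases that favour survival and self-renewal.

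The deposited table gives 1 value per gene and genotype in FPKM, a fragment number divided by the length of the transcript and by the size of the library. Because of the division by length, levels of different genes can be set side by side. It carries no replicate error here and no sequencing depth, and significance is that of the q-value in the authors' deposited table. Which test gave it is not stated in the labels. Changes are given as mutant minus wild type on the log2(FPKM + 1) scale, which understates the change of genes near 1 FPKM. Chd2 itself had 10.2 FPKM in wild-type and 5.69 FPKM in mutant cells, a difference called in the authors' deposited table with a q-value of 0.0103. Genes whose mean over the genotypes was 1 FPKM or more are called expressed below. Over these 10766 genes, the median change was -0.0012. The embryonic stem cell markers Dppa5a (3844 and 4380 FPKM in wild type and mutant) and Pou5f1 (1032 and 1071 FPKM) were abundant, and all 10 markers of that list had a mean of at least 44.1 FPKM. Of the primed epiblast markers, Dnmt3b (146 and 128 FPKM) and Otx2 (4.93 and 7.59 FPKM) had the highest means over the genotypes, and none was called. The 7 primitive endoderm markers were all under 1 FPKM, led by Sox7 at 0.710 and 0.638 FPKM. Of the 9 fibroblast markers, Col3a1, Lum and Postn were listed at 0 in both genotypes, and the most abundant, Thy1, was at 14.2 and 11.5 FPKM. In that list 2 genes had means of at least 1 FPKM, and none was called. In the trophoblast list Krt8 (19.8 and 22.5 FPKM) and Krt18 (9.51 and 10.99 FPKM) led. Of its 7 genes, 3 had means under 1 FPKM, namely Cdx2, Elf5 and Hand1. In the mutant, 5 of the 7 had lower values and 2 higher ones, and none was called. In the blood list Laptm5 (47.03 and 43.4 FPKM) led, and Lyz2 and Tyrobp were listed at 0.

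Promoter sequence was examined for the binding motif of STAT factors, because Socs3, Pim1 and Pim3 are known STAT3 targets. The windows, from RefSeq on build GRCm38.p6, run from 250 bases before to 50 bases after an annotated start. All 9 genes matched, with 11 windows. The motif searched was TTCNNNGAA, which reads the same on both strands. It lay in 8.30% of the 32851 windows of all genes and in 6.59% of the 10189 windows matched to expressed genes. Of the 11 windows, 1 held it, that of Socs3, or 9.09%. The 200 bases from position -250 to -51 of the feedback genes are printed to show that match and the base composition around it. Capitals mark the motif, and sequences run 5′ to 3′ on the strand of the gene. The span is chr11:117969417-117969616 (minus strand) for Socs3, chr17:29490535-29490734 (plus strand) for Pim1 and chr15:88861944-88862143 (plus strand) for Pim3.
Socs3: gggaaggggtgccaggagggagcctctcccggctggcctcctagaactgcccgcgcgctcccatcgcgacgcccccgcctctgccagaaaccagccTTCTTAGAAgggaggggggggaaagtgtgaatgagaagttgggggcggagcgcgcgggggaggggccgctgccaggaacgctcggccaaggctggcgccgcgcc
Pim1: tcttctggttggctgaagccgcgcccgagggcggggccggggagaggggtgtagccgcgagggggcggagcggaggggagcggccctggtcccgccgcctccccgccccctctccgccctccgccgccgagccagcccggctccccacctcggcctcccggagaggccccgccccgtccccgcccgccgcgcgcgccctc
Pim3: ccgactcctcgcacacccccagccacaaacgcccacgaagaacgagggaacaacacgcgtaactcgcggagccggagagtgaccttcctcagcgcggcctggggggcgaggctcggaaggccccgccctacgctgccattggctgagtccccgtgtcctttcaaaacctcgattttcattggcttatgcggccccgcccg

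The Socs3 match lay at chr11:117969512-117969520, from position -154 to -146 of the RefSeq start. In GENCODE M21, on the same build, it is 326 bases upstream of the protein-coding Socs3 transcript, 61 bases upstream of 1 noncoding Socs3 transcript and in an intron of another. The window therefore ends before the start of the coding transcript, and the bases next to that start were not searched. The stretches printed are rich in C and G, with 18 CG pairs in Socs3, 28 in Pim1 and 21 in Pim3. Over whole windows of 300 bases, Lif had 7 CG pairs, the median of all windows, and Stat3 had 15. Il6st, Jak1 and Jak2 had 33, 29 and 44. Lifr had 1 window with 53 and 1 with 4, and Pim1 1 with 42 and 1 with 5. The windows of Lif and Jak2, the genes with the lowest RNA levels of the 9, therefore differed widely in CG content.

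Transcripts of the receptor, the JAK1 kinase, STAT3 and the feedback genes were present in both genotypes, and those of the ligand and of JAK2 were scarce. None of the 9 genes was called in the authors' deposited table, where 0.348% of all genes listed and 0.697% of expressed genes were called. Of the 9 genes, 7 were expressed by that measure. None of these 7 changed by 0.32 or more on the log2(FPKM + 1) scale, which is a mutant level of at least 125% or at most 80% of wild type once 1 FPKM is added to both, against 7.63% of all expressed genes. Their changes ran from -0.30 for Socs3 to 0.18 for Pim3, with a median of -0.040, and 5 lay below 0 and 2 above. With so few genes, 0 of 7 is also close to the background share. A q-value that misses the threshold does not show that a transcript had the same level in both genotypes.

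**Figure D1:**
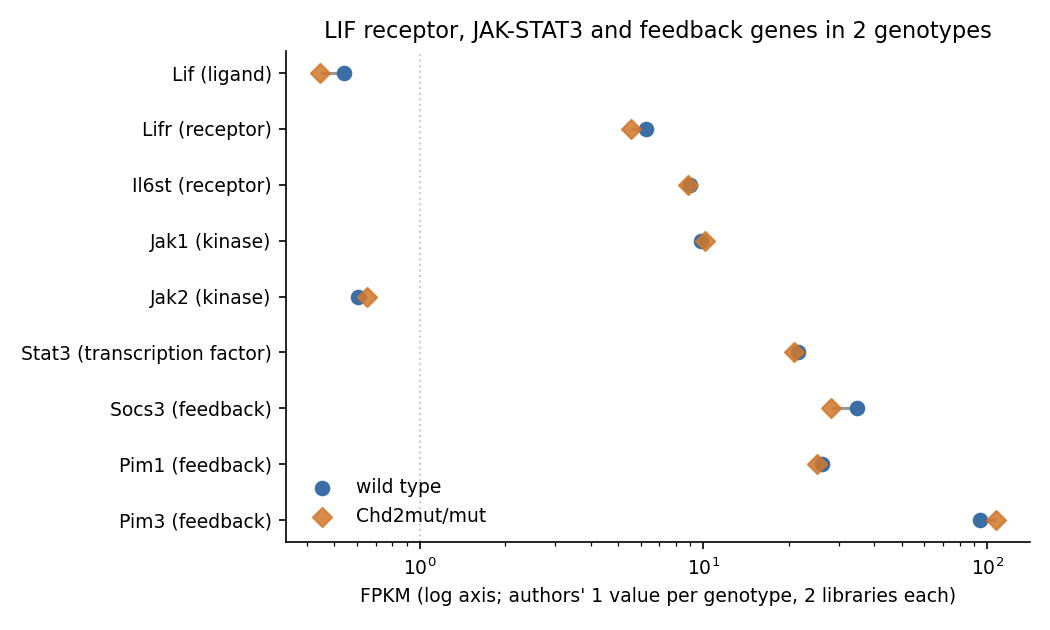
FPKM of the 9 genes on a log axis, with circles for wild type and diamonds for the mutant, 1 value per genotype and no error bars. The order from Pim3, the highest, to Lif, the lowest, was the same in both genotypes, and the widest gaps between circle and diamond are those of Lif and Socs3.

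The ligand gene Lif had 0.539 FPKM in wild-type and 0.445 FPKM in mutant cells, below the minimum of 1 FPKM in both. The mutant value was 82.6% of the wild-type value, and the table gives a q-value of 1. Of the other 10 ligand genes of the family, 2 were expressed and none was called. Ctf1, which encodes cardiotrophin-1, another ligand that signals through LIFR and gp130, was at 3.93 and 4.24 FPKM (q = 0.998). Il6 and Il27 were listed at 0 in both genotypes.

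Among receptor genes, those of the LIF receptor itself were not called, while Cntfr fell. Il6st had 8.97 FPKM in wild-type and 8.83 FPKM in mutant cells, a change of -0.020 (q = 0.998). Lifr had 6.27 FPKM in wild-type and 5.55 FPKM in mutant cells, 88.5% of the wild-type level and a change of -0.15 (q = 0.981). Il6st was thus above Lifr in each genotype, by 1.43 times in wild type and 1.59 times in the mutant. Cntfr encodes the membrane-anchored alpha subunit that joins LIFR and gp130 in the receptor for ciliary neurotrophic factor. Its level was 5.80 FPKM in wild-type cells, close to Lifr, and 2.89 FPKM in mutant cells, a 2.01-fold drop. The authors' deposited table calls it with a log2 fold change of -1.01 and a q-value of 0.0179, where 0.437% of expressed genes were called as lower. In bulk RNA, fewer cells that express Cntfr and less Cntfr RNA per cell cannot be told apart. Cntfr made up 26.4% of the summed FPKM of the 7 receptor genes of the family in wild type and 15.7% in the mutant. The sum went from 21.97 to 18.4 FPKM. The other 4 receptor genes, Il6ra, Il11ra1, Osmr and Il27ra, had means under 1 FPKM and were not called. Il6ra, which binds interleukin-6, was at 0.3444 and 0.3495 FPKM, and Osmr, the receptor of oncostatin M, was listed at 0 in wild-type cells and had 0.0239 FPKM in mutant ones. Il6ra, Il11ra1, Osmr and Il27ra were picked after their values were seen, to complete the family.

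The kinases differed more from each other than between genotypes. Jak1 had 9.77 FPKM in wild-type and 10.1 FPKM in mutant cells, a change of 0.045 (q = 0.998). Jak2 was at 0.608 and 0.651 FPKM (q = 0.998), below 1 FPKM in both, so that Jak1 was 16.1 times above Jak2 in wild type and 15.5 times in the mutant. Neither of these 2 was the most abundant gene of its family. Jak3, whose product is best known for pairing with the common gamma chain of lymphocyte cytokine receptors, was at 16.97 and 15.3 FPKM (q = 0.981). Tyk2, a kinase of interferon and interleukin receptors, was at 10.9 and 12.7 FPKM (q = 0.877). Of the summed FPKM of the 4 genes in wild type, Jak3 made up 44.4%, Tyk2 28.5%, Jak1 25.6% and Jak2 1.59%. The order was the same in the mutant, where the shares were 39.5%, 32.7%, 26.1% and 1.68%.

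Stat3 was the most abundant of 6 STAT genes compared in both genotypes. It had 21.5 FPKM in wild-type and 20.9 FPKM in mutant cells, a change of -0.040 (q = 0.998), and made up 54.5% and 57.4% of their summed level. It was 2.20 times above Jak1 in wild type and 2.07 times in the mutant. Stat6, which carries interleukin-4 signals, followed with 11.2 FPKM in wild-type and 8.52 FPKM in mutant cells (q = 0.534). The 6 genes kept the same order in both genotypes, and of the 8 other JAK and STAT genes none was called.

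**Figure D2:**
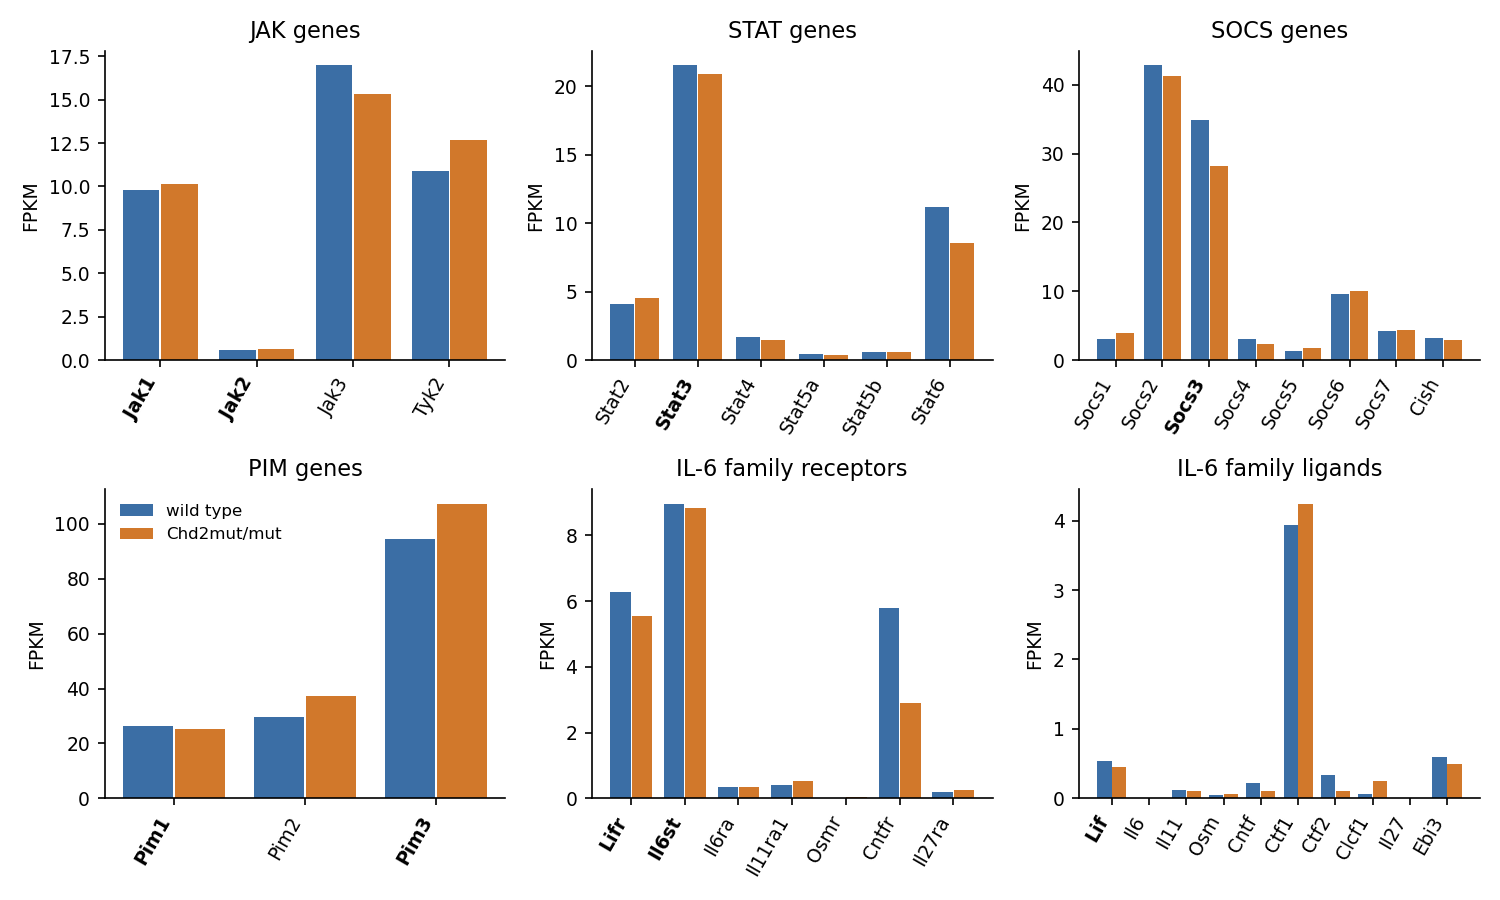
FPKM of genes of the JAK, STAT, SOCS, PIM, receptor and ligand families in wild type and mutant, on linear axes that start at 0, with the genes described here in bold. Jak2 and Lif are near the base of their panels, Stat3 is the highest bar of its panel, and Cntfr is the 1 gene of these families called as lower.

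Among the feedback genes, Socs3 had the lowest q-value of the 9 genes, far from the threshold. It had 34.9 FPKM in wild-type and 28.2 FPKM in mutant cells, 80.7% of the wild-type level and a change of -0.30 (q = 0.585). A change at least as large in either direction was seen in 9.06% of expressed genes. Socs3 exceeded Stat3 by 1.62 times in wild type and 1.35 times in the mutant. In the SOCS family, which includes Cish, Socs3 was second in both genotypes after Socs2, an inhibitor of growth hormone signalling at 42.8 and 41.2 FPKM (q = 0.998), picked after its values were seen. Socs3 made up 34.1% of the summed FPKM of the 8 genes in wild type and 29.7% in the mutant, and all 8 were expressed.

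The PIM kinase genes lay on either side of 0. Pim1 had 26.3 FPKM in wild-type and 25.2 FPKM in mutant cells, a change of -0.058 (q = 0.998). Pim3 had 94.4 FPKM in wild-type and 107.4 FPKM in mutant cells, 114% of the wild-type level and a change of 0.18 (q = 0.930). The third member of the family, Pim2, was at 29.6 and 37.4 FPKM, a change of 0.33 (q = 0.519), which is past 0.32 but not called. Pim3 made up 62.8% of the summed PIM level in wild type and 63.2% in the mutant, and it ranked 1101 and 923 among all genes listed. Socs3 and Pim3 thus differed in opposite directions, and the ratio of Pim3 to Socs3 went from 2.71 in wild-type to 3.81 in mutant cells. The changes of Socs3 and Pim3 were the lowest and the highest among the 7 expressed genes of the 9. The difference between these changes was not tested.

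**Figure D3:**
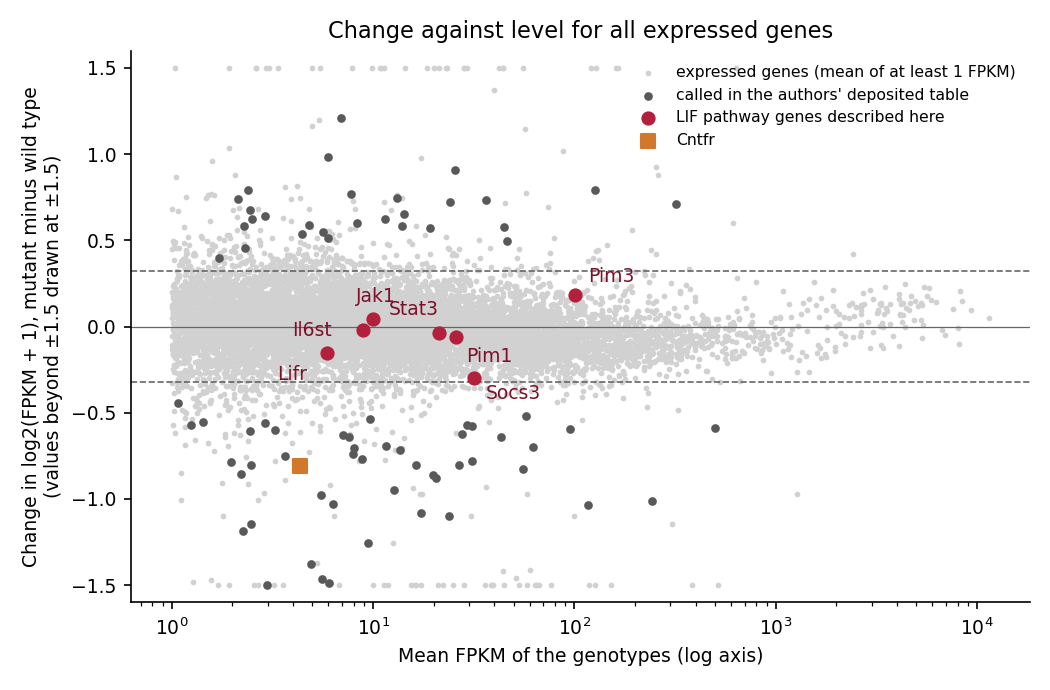
Change in log2(FPKM + 1), mutant minus wild type, against the mean FPKM of the genotypes on a log axis for the 10766 expressed genes, with dashed lines at changes of 0.32 on either side of 0 and values beyond 1.5 drawn at 1.5. The 7 expressed LIF pathway genes lie between the dashed lines, with Socs3 just inside the lower one, and Cntfr lies at -0.81.

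The wider pathway was described with 8 further lists of 100 genes, of which 82 were expressed. Cntfr was the 1 gene called among them, or 1.22% of the 82, against 0.697% of all expressed genes. A change of 0.32 or more was found in 5 of them, 2 higher and 3 lower, which is 6.10% against 7.63% of all genes, with 3.80% higher and 3.83% lower. The lower genes were Cntfr, Stat6 and Ier3, and the higher genes were Nanog and Pim2. The median change of the 82 genes was -0.011, with 37 above 0 and 45 below.

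Inhibitors of the JAK-STAT signal other than Socs3, which include the other SOCS genes, the PIAS proteins that bind STATs and phosphatases, had no call among their 17 expressed members and a median change of 0.0080. The largest changes were those of Socs4 (3.07 and 2.41 FPKM, q = 0.872), the ubiquitin ligase gene Cbl (3.96 and 4.92 FPKM, q = 0.708) and the phosphatase gene Ptpn6 (15.7 and 13.04 FPKM, q = 0.792). Ndufa13, a subunit of respiratory complex I whose product also binds STAT3, was the most abundant at 74.6 and 74.8 FPKM. Genes of the RAS-ERK and PI3K branches, which also start at gp130, had no call among 26 expressed and a median of 0.0099. Yes1, which encodes a kinase of the Src family, was at 10.4 and 13.2 FPKM (q = 0.534), Pik3cb, a catalytic subunit of PI3K, at 13.1 and 16.1 FPKM (q = 0.646), and the RAS exchange factor gene Sos1 at 4.25 and 5.19 FPKM (q = 0.697). The 7 cofactors of STAT3 had no call and a median of -0.042, with the deacetylase genes Hdac1 at 282 and 267 FPKM and Hdac2 at 119.6 and 112 FPKM, and the acetyltransferase gene Ep300 at 11.4 and 12.2 FPKM.

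Other genes known as targets of LIF and STAT3 had no call among 22 expressed and a median change of -0.028, with 15 below 0 and 7 above. Ier3, an immediate early gene, had the largest difference and had 10.02 FPKM in wild-type and 7.22 FPKM in mutant cells, a change of -0.42 (q = 0.536). Nanog, a core pluripotency factor, was at 114 and 150 FPKM, a change of 0.39 (q = 0.293). Cebpb, a transcription factor of the acute phase response, was at 3.67 and 4.73 FPKM (q = 0.950). Eed, a Polycomb subunit and the most abundant of the list, was at 171 and 167 FPKM. Socs3 and Ier3 thus had lower values in the mutant and Nanog and Pim3 higher ones, and none of the 4 was called.

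**Figure D4:**
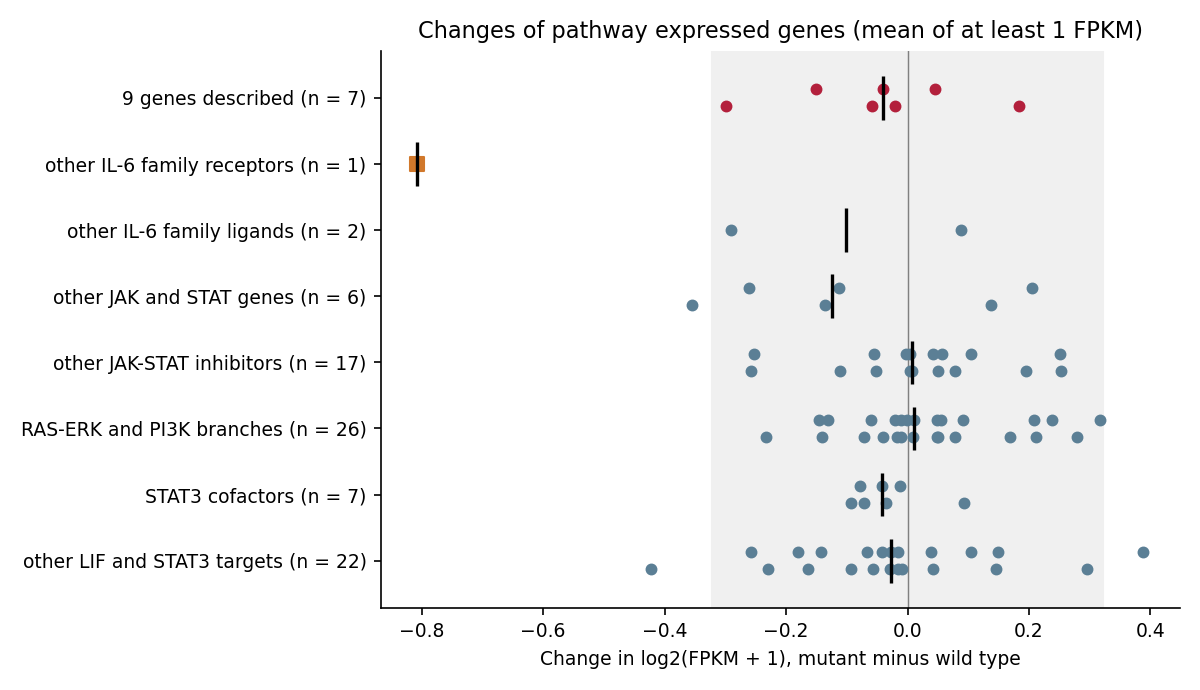
Change in log2(FPKM + 1), mutant minus wild type, of each expressed pathway gene, by list, with a black bar at the median and a shaded band of 0.32 on either side of 0. The square is Cntfr, the 1 gene called, and the other medians drawn lie between -0.12 and 0.0099. Pim2, a list of its own at 0.33, is not drawn.

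Of the 100 genes of these lists, 72 had a promoter window, and the others were not searched for the motif. The STAT motif lay in 7 of the 95 promoter windows of these lists, or 7.37%. That is near the shares of all windows (8.30%) and of windows matched to expressed genes (6.59%). The 7 were 1 of 13 windows of the inhibitors, 2 of 18 of the targets and 4 of 30 of the RAS-ERK and PI3K branches. In the other 5 lists it was 0 of 34. The matches in the RAS-ERK and PI3K branches were in Gab1, Akt2 and Mtor, named for their sequence. The Gab1 windows with a match overlap and hold the same site, which is thus counted more than once. The stretches of 30 bases around the matches in inhibitors and targets are printed for comparison with Socs3. Cish, a feedback inhibitor of STAT5 signals, held 2 matches around its annotated start, at positions 1 to 9 and 12 to 20. The first of them and the match in Icam1, at positions -42 to -34, also fit the stricter motif TTCCNGGAA, which was in none of the windows of the 9 genes and in 1.15% of all windows. Zfp36 held 1 match at positions -17 to -9. Capitals mark the match, in Cish the first of the pair. The spans are chr11:117969501-117969530 (minus strand) for Socs3, chr9:107296649-107296678 (plus strand) for Cish, chr9:21015888-21015917 (plus strand) for Icam1 and chr7:28379226-28379255 (minus strand) for Zfp36, all in GRCm38.p6.
Socs3: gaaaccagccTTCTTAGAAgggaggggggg
Cish: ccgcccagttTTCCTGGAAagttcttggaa
Icam1: ggcgcgaggtTTCCCGGAAagtggccccga
Zfp36: acagcctgacTTCTGCGAAccgacagtcgg

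The RNA of Cish, Icam1 and Zfp36 was not called, where 0.697% of expressed genes were called. Cish was at 3.27 and 2.95 FPKM (q = 0.998), Icam1, which encodes an adhesion molecule, at 14.4 and 13.97 FPKM (q = 0.998), and Zfp36, which encodes a protein that destabilises mRNAs, at 8.97 and 7.51 FPKM (q = 0.919). These 3 genes were picked for their sequence. A match of letters is a description and does not show that STAT3 bound there, and no binding data were analysed here.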

How the data were processed

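RNA sequencing of 2 wild-type and 2 Chd2 mut/mut libraries was used. The submitters' processing notes name the build mm9 and the tools TopHat2 2.1.0, bcl2fastq 2.17.1.14 and Cufflinks. The Cufflinks version, the gene annotation and the way the libraries of a genotype were combined are not stated there. The authors deposited 1 FPKM value per gene and genotype, a log2 fold change and a q-value per gene, per the file headers. All calls have a q-value under 0.05. The values of separate lots were not analysed here, so no model was fitted, no standard deviation is given and no sample was left out. The members and lists were chosen with earlier results of these data known. Python 3.11.15 with pandas 2.3.3 was used.

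Genes whose mean over the genotypes was 1 FPKM or more, called expressed, were used for counts of changes of 0.32 or more and for medians. Changes are differences of log2(FPKM + 1). Named genes are the 9 members, Chd2, and in each pathway list the called genes, the most abundant gene and the 3 largest changes among expressed genes, and the 2 most abundant of each marker list. Genes named outside this rule complete a family, carry a motif, flank 1 of the 9 genes or are markers with low levels. A few genes that this rule selects are counted in their lists and not reported here by name, and family sums leave them out. Hras was listed under its older symbol Hras1. The script that computes changes and counts was tested on simulated data, with planted changes well past the threshold and little noise. Such a test checks the arithmetic and does not show how reliable the counts are in these data. Alternatives were other pseudocounts, filters, thresholds and scalings. Promoter windows came from RefSeq on GRCm38.p6, another build than the authors used, and were matched by symbol. Protein sequences were not used here, so the planned count of receptor tyrosine motifs was not made. Where a gene overlaps another or shares reads with a relative, the authors' handling of such reads is not given.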

Additional observations from a re-analysis of the deposited data

How the results depend on the processing

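No paired analysis was possible because the table holds 1 value per genotype, with no value for each lot, and the settings that leave out a library could not be run for the same reason. Under pseudocounts of 0.1 and 5, the median of all genes set to 0, quantile normalization and rescaling to the same sum, each of the 9 genes kept the sign of its change, which a pseudocount cannot alter. The change of Socs3 ran from -0.31 to -0.27 and that of Pim3 from 0.18 to 0.26. Pseudocounts of 0.1 and 5 moved by over 1.5 times the changes of the scarce Lif, to -0.23 and -0.025, and Jak2, to 0.085 and 0.011, and a pseudocount of 5 moved Lifr, to -0.095. Quantile normalization moved Jak2 to 0.025. None of the expressed genes of the 9 passed 0.32 under any of these settings, without a filter, with a mean of at least 5 FPKM or with 1.5-fold as the threshold, and their median change ran from -0.045 to -0.033. The share of all expressed genes past 0.32 was 12.1% with a pseudocount of 0.1 and 2.82% with a pseudocount of 5. Cntfr, with a mean of 4.34 FPKM, is not among the calls with a mean of at least 5 FPKM. Its change was -0.45 with a pseudocount of 5. With that pseudocount, Stat6 and Pim2 no longer passed 0.32, and of Ier3 and Nanog only 1 did. With 1.5-fold as the threshold, Cntfr was the only gene of the wider pathway lists that passed.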

Other observations

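The nearest protein-coding genes on either side of the 9 genes, in GRCm38 gene order, gave 18 neighbours, of which 16 were listed by the same symbol. None of these neighbours was called, where 0.348% of all genes listed were called, so that no call among 16 genes is near that share. Several are relatives of the gene they flank and were scarce in both genotypes. Osm, which encodes the LIF relative oncostatin M and flanks Lif, was at 0.0433 and 0.0637 FPKM in wild type and mutant. Osmr, the receptor gene of oncostatin M, flanks the expressed Lifr and was listed at 0 and at 0.0239 FPKM. Il31ra, which encodes a receptor related to gp130, flanks the expressed Il6st and was listed at 0 in both genotypes. Stat5a flanks Stat3 and was at 0.455 and 0.407 FPKM. By contrast, Rcl1, which encodes a factor of ribosomal RNA processing, was at 83.6 and 80.9 FPKM next to the scarce Jak2, and Pgs1, an enzyme of cardiolipin synthesis, was at 27.1 and 25.6 FPKM next to Socs3. These neighbours were picked after their values were seen.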
